A study of Mus musculus with 4 samples.

Results

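The stress keratins Krt6a, Krt6b, Krt16 and Krt17 are 4 of the 31054 rows (31053 mouse genes and a YFP row) of single-cell RNA count matrices from mouse skin tumours. They were taken by gene symbol, and each symbol had a row in the matrices of all 4 libraries. Keratins build the intermediate filaments of epithelial cells, and each filament needs a type II and a type I partner. Krt6a and Krt6b are type II keratins whose usual partners are the type I keratins Krt16 and Krt17. In mouse skin they are found in parts of the hair follicle, such as the outer root sheath and the companion layer, and are low in resting epidermis between the follicles. Wounding, inflammation and hyperproliferation induce them in the epidermis, and they are commonly high in squamous tumours.

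The tumours came from LKPR mice, which carry Lgr5CreER, KrasLSL-G12D, p53fl/fl and Rosa26-YFP+/+. Cre is driven from Lgr5, a gene of hair follicle stem cells, and the YFP reporter marks cells in which Cre has acted and their descendants. All mice, controls included, received 4 daily injections of 2.5 mg tamoxifen starting on postnatal day 28, and tumours were looked for from 7 to 9 weeks later. NP137 is an antibody that binds the secreted guidance protein netrin-1. Mice of the NP137 group received it intraperitoneally at a dose of 10 mg/kg, repeated every 2 days, beginning 4 weeks after the tamoxifen and continuing until death. There were 2 NP137 libraries and 2 control libraries, and the labels name no vehicle for the controls. The labels do not say whether the libraries of a group are separate animals, so p-values measure only the spread between these libraries. Live cells were sorted without selecting on YFP, Epcam or lineage, so the libraries also hold normal skin, stroma and blood cells.

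After filters 44501 cells were used, 14205 and 14513 in NP137 1 and NP137 2, against 10482 and 5301 in control 1 and control 2, with a median of 2352 to 6044 UMIs (counted molecules) per cell. Between libraries 24 to 86 barcodes were shared, at most 0.578% of the smaller library. Of 32 clusters, drawn without the 4 stress keratins, 5 were taken as tumour because 50% or more of their cells carried YFP. The lowest of the 5 had YFP in 73.2% of its cells. Tumour clusters whose summed epithelial genes exceeded their summed mesenchymal genes were called epithelial-state and the others mesenchymal-state. The library NP137 1 held cells with Xist and no Y-linked UMI (27.7% of its cells) as well as cells with Y-linked UMIs and no Xist (16.7%). These shares were 68.0% and 0.0% in NP137 2, 64.4% and 0.0191% in control 1, and 0.302% and 51.4% in control 2. By these genes control 1 and control 2 held cells of different sex, so sex differs between libraries. Its part in the keratin values was not tested. Macrophages and monocytes, which should lack keratins, had a YFP UMI in 9.12% and 3.21% of cells in NP137 1 and NP137 2, against 17.4% and 10.0% in control 1 and control 2.

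The 4 genes lie in the keratin clusters of chromosomes 15 and 11 (GRCm38 coordinates, GENCODE M21 annotation, all on the minus strand and protein-coding). Krt6b (ENSMUSG00000023041) spans chr15:101676023-101680287, and Krt6a (ENSMUSG00000058354) chr15:101689910-101694307, with 9622 bases and 0 coding genes between them. Krt16 (ENSMUSG00000053797) spans chr11:100246091-100248902, and Krt17 (ENSMUSG00000035557) chr11:100256217-100261029, with 7314 bases and 0 coding genes between them. Krt6a and Krt6b are close copies, with 97.6% identical coding bases over 1659 and 1662 bases, which matters for whether their reads can be told apart. The end of the coding sequence is shown 5′ to 3′ from coding base 1543 of each annotated transcript, 117 bases of Krt6a and 120 of Krt6b, with capitals where the aligned copies differ or a base has no partner:
Krt6a: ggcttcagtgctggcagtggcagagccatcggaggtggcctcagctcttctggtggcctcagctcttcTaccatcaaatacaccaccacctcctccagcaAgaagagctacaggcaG
Krt6b: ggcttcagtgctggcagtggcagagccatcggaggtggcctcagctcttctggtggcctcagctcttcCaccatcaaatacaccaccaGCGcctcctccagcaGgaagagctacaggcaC
The 3′ libraries read the transcript end, and there the copies part: the last 400 transcript bases are 68.0% identical, and no stretch of 90 bases within that end of either transcript is found in the other. Reads that fall only in the coding part could still be assigned to the wrong copy or left out, which was not tested.

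All 4 stress keratins were far higher in epithelial-state than in mesenchymal-state tumour cells, and 3 of them passed the test. Krt6a, the main inducible type II keratin, had 1622 CPM (UMIs of the gene per 1000000 UMIs of the class in that library) in NP137 1, 1662 in control 1 and 2842 in control 2 in epithelial-state cells, against 128, 22.6 and 39.3 CPM in mesenchymal-state cells of the same libraries. Krt6b, its scarcer copy, had 68.1, 33.3 and 166 CPM in epithelial-state cells, against 11.7, 1.51 and 6.74 CPM in mesenchymal-state cells. Every epithelial-state value of both genes lay above every mesenchymal-state value. Krt16, a type I partner induced in hyperproliferative epidermis, had 864, 384 and 757 CPM in epithelial-state cells, against 80.3, 12.3 and 21.9 CPM in mesenchymal-state cells. Krt17, a type I keratin also made by normal follicle cells, had 4546, 4039 and 5886 CPM in epithelial-state cells, against 376, 49.7 and 35.5 CPM in mesenchymal-state cells. Again no values overlapped, though the share of all genes that separate the states in this way was not counted. NP137 1 held the highest mesenchymal-state value of all 4 genes. NP137 2 had 2290 CPM of Krt6a, 54.4 of Krt6b, 772 of Krt16 and 1969 of Krt17 in epithelial-state cells, but it held 12 mesenchymal-state cells and was not used in this comparison.

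**Figure D1:**
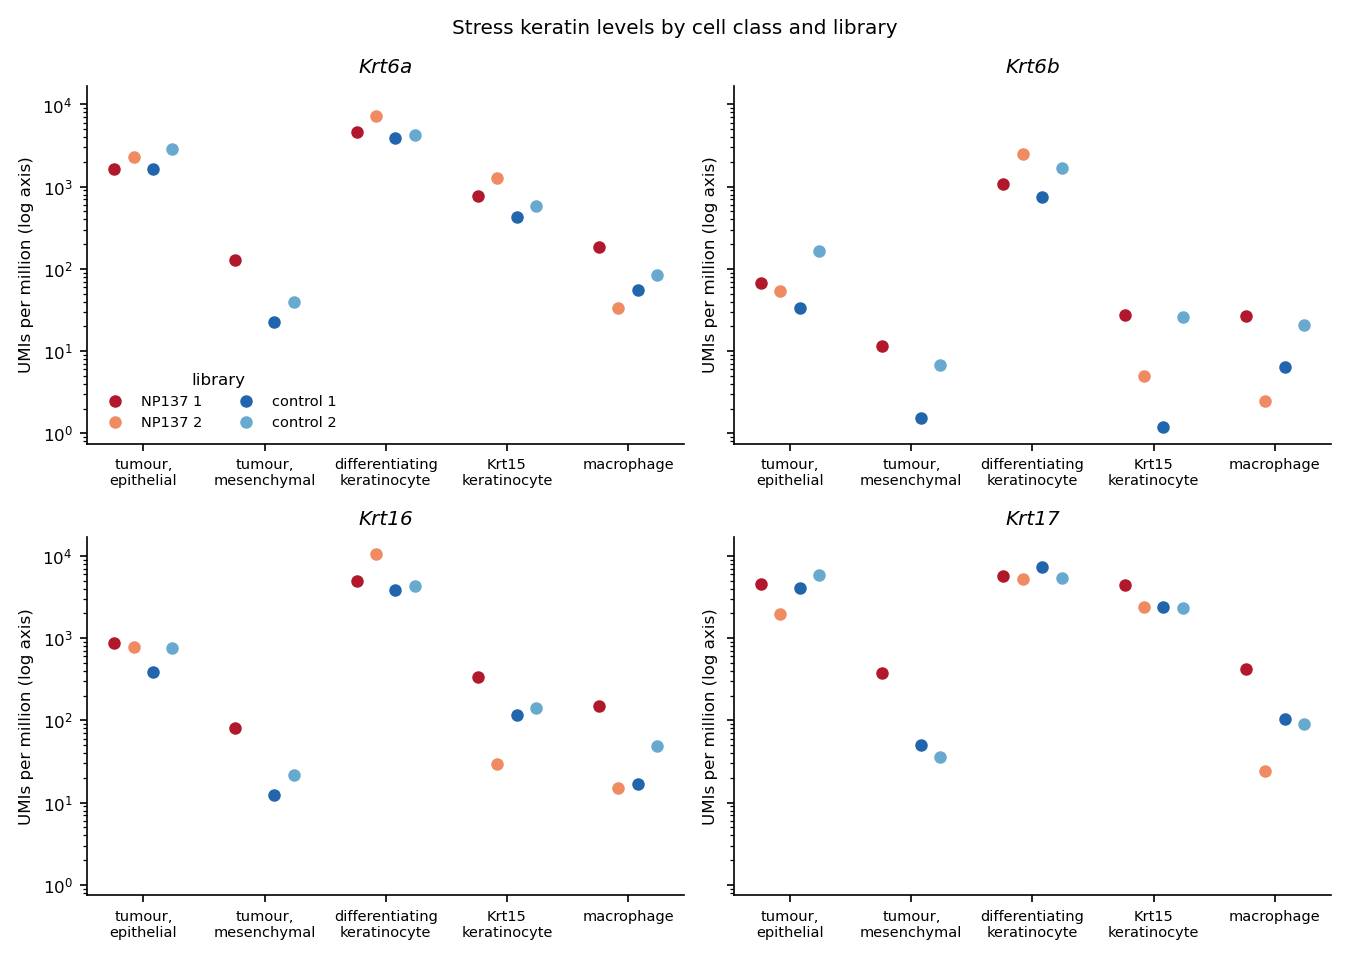
Level in CPM of each stress keratin (log axis) by cell class, a point per library and class with at least 20 cells. With the classes as first drawn, differentiating keratinocytes are highest for Krt6a, Krt6b and Krt16, epithelial-state tumour cells lie well above mesenchymal-state cells for all 4 genes, and mesenchymal-state values lie at or under those of macrophages in the same library.

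In edgeR's quasi-likelihood test with library as a block, 3 of the 4 genes were higher in epithelial-state cells, against 6.74% of the 12886 genes tested. The log2 fold change was 5.47 for Krt6a (SE 0.75, edgeR adjusted p = 0.0266), 4.15 for Krt6b (SE 0.40, adjusted p = 1.27e-04) and 4.59 for Krt16 (SE 0.35, adjusted p = 9.42e-05). Krt17 had the largest fold change of the 4, 5.90, and the largest error (SE 1.18), and did not pass (adjusted p = 0.0949). Without NP137 1 only control 1 and control 2 remained, with Krt17 at 6.84 and Krt6a at 6.17. Krt17 then passed, but so few libraries give little measure of spread, so no p-value is given. All 4 passed in DESeq2, as did 17.2% of genes. With clusters cut at a finer resolution Krt6b (adjusted p = 0.122) and Krt16 (adjusted p = 0.111) missed the threshold in edgeR, at 6.60 and 6.34. With a YFP UMI required in every tumour cell, which left only NP137 1 and control 1, Krt6a missed it, at 5.15. Here too the libraries are too few for a p-value to be given. The states were called from other genes of the same cells, so these p-values treat as known a boundary that the data drew. All 12 mesenchymal-state values (4 genes in 3 libraries) were under the macrophage level of the same library, at 0.239 to 0.902 of it, whereas all 16 epithelial-state values were 2.59 to 82.3 times that level. All but 1 of these 16 also exceeded every other class that should lack keratins (6 to 9 classes per library). The exception was Krt6b in NP137 1, with 68.1 CPM in epithelial-state cells, against 80.4 CPM in neutrophils, so by CPM it is not separated from that class. Neutrophils of this library had a median of 744 UMIs per cell, against 8882 in its epithelial-state cells. What this depth adds to the neutrophil CPM was not tested. The mesenchymal-state values are therefore not separated from background, and the fold changes are distances from values at that level. Mesenchymal-state cells had a median of 3395.5, 8006 and 27686.5 UMIs in NP137 1, control 1 and control 2. Macrophages had 2087.5, 3861 and 9177.5 there. What this depth takes from the mesenchymal-state CPM, and whether these cells express the genes at a low level, was not tested.

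Single tumour cells, thinned to 2000 UMIs each, showed the same order by their own Epcam and Vim UMIs in 2 of the libraries and not in another. In NP137 1 a Krt6a UMI was found in 90.3% of cells with Epcam alone (952 cells), in 81.2% of cells with both genes (849 cells) and in 48.8% of cells with Vim alone (834 cells). In control 1 the shares were 93.3% of 75 cells, 56.4% of 140 cells and 7.53% of 3984 cells. NP137 2 did not follow this order, with Krt6a in 86.4%, 86.5% and 88.1% of cells, the last over 42 cells. For Krt17 the shares were 98.7%, 97.9% and 75.1% in NP137 1, 79.6%, 76.4% and 73.8% in NP137 2, and 98.7%, 69.3% and 15.5% in control 1. In control 2, 1053 of the tumour cells had Vim alone, and Krt6a was found in 8.26% and Krt17 in 8.93% of them. Macrophages thinned to the same depth had Krt6a in 27.1% and 7.34% of cells in NP137 1 and NP137 2, against 12.4% and 17.9% in control 1 and control 2, and Krt17 in 47.1% and 5.40%, against 19.8% and 17.9%. The Vim-alone cells of both control libraries thus did not exceed their own macrophages for either gene, while those of both NP137 libraries did. These cells belonged to different states by group: 736 of 834 and 40 of 42 were epithelial-state in NP137 1 and NP137 2, while 3849 of 3984 and 1052 of 1053 were mesenchymal-state in control 1 and control 2.

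**Figure D2:**
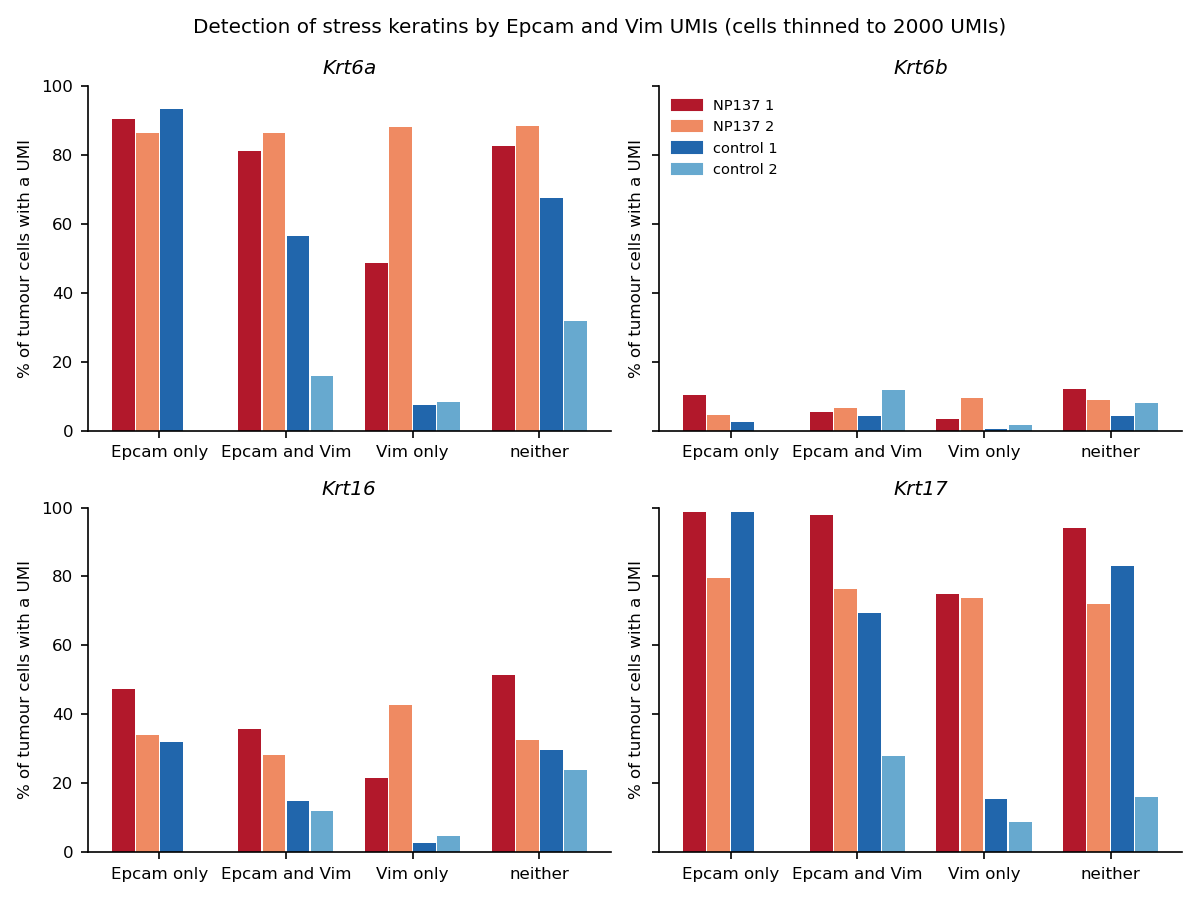
Percent of tumour cells with at least 1 UMI of each stress keratin after thinning to 2000 UMIs, by whether the cell also had Epcam or Vim UMIs, a bar per library and category with at least 20 cells. The Krt6a share falls across categories to 7.53% of Vim-alone cells in control 1 and stays at 88.1% in NP137 2.

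Over all tumour cells together, every stress keratin had a higher level in NP137 libraries, by a fitted 10.2 to 22.1-fold, and none passed the test. Krt6a had 1581 and 2288 CPM in NP137 1 and NP137 2, against 203 and 83.5 CPM in control 1 and control 2. Krt6b had 66.6 and 54.4 CPM in NP137 libraries, against 5.01 and 9.25 CPM in control libraries. Krt16 had 843 and 772 CPM in NP137 libraries, against 53.2 and 33.5 CPM in control libraries. Krt17 had 4432 and 1968 CPM in NP137 libraries, against 489 and 128 CPM in control libraries. The edgeR log2 fold changes were 4.00 for Krt6a (SE 0.59, adjusted p = 0.0743), 3.36 for Krt6b (SE 0.38, adjusted p = 0.0664), 4.46 for Krt16 (SE 0.38, adjusted p = 0.0664) and 3.58 for Krt17 (SE 0.82, adjusted p = 0.104). None of the 4 passed in edgeR, where 0.0071% of 14086 genes did, a single gene, the nuclear receptor Nr2f1, which was lower in NP137 and is named after its value was seen. All 4 had an unadjusted p under 0.05, as did 23.5% of all genes, and all 4 passed in DESeq2, as did 15.8% of genes. Without control 1 all 4 passed in edgeR, with adjusted p of 0.0170 to 0.0343, Krt16 also passed without NP137 1 (adjusted p = 0.0352), and Krt16 and Krt6b without control 2 (both with adjusted p = 0.0440). With the finer clusters Krt6b was at 1.501 (SE 1.04, edgeR adjusted p = 0.435) and Krt16 at 2.86 (SE 0.64, edgeR adjusted p = 0.0971). Fewer cells that express a gene and less RNA per cell cannot be told apart in these sums.

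Shares of tumour cells with a UMI, thinned to 2000 UMIs per cell, had the same order. Krt6a was found in 75.0% and 87.0% of tumour cells in NP137 1 and NP137 2, against 11.6% and 9.85% in control 1 and control 2. Krt17 was found in 91.2% and 77.1% in NP137 libraries, against 19.8% and 10.5% in control libraries. Krt16 was found in 37.0% and 33.1%, against 4.07% and 5.82%, and Krt6b in 7.03% and 6.28%, against 0.749% and 2.06%. The control shares were close to or under those of macrophages in the same library for all 4 genes. By level, control 1 tumour cells had 3.66, 3.18 and 4.72 times the CPM of their macrophages for Krt6a, Krt16 and Krt17 and 0.791 times for Krt6b, so no order is read from the shares there. Krt16 was found in 22.6% and 3.36% of macrophages in NP137 1 and NP137 2, against 3.62% and 10.3% in control 1 and control 2. Without thinning, Krt6a was found in 89.0% and 96.6% of tumour cells of NP137 libraries, against 25.2% and 57.1% in control libraries. The exact 2-sided permutation test gave p = 0.333 for each gene, the smallest p that 2 libraries against 2 allow.

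The share of tumour cells in the epithelial state moved with this difference, at 95.1% and 98.7% in NP137 1 and NP137 2, against 8.17% and 2.03% in control 1 and control 2. Within epithelial-state cells as first drawn no difference between the groups passed. Krt6a averaged 1956 ± 472 CPM in NP137 libraries and 2252 ± 835 CPM in control libraries (SD, n = 2 each), and Krt6b averaged 61.3 ± 9.67 CPM in NP137 and 99.5 ± 93.6 CPM in control libraries. Krt16 averaged 818 ± 64.8 CPM in NP137 and 571 ± 264 CPM in control libraries. Krt17 averaged 3258 ± 1822 CPM in NP137 and 4963 ± 1306 CPM in control libraries. The edgeR log2 fold changes were -0.02 for Krt6a (SE 0.39), -0.46 for Krt6b (SE 0.75), 0.69 for Krt16 (SE 0.40) and -0.45 for Krt17 (SE 0.43), each with an adjusted p of 0.999. In edgeR 0 of 12196 genes passed (0.0%) and 3.53% had an unadjusted p under 0.05, none of them a stress keratin. By DESeq2 0.0492% of genes passed and 0 stress keratins. Control 2 contributed 23 epithelial-state cells, and without it Krt6a was at 0.51 and Krt6b at 1.15 (SE 0.36, adjusted p = 0.914), the other direction. With the finer clusters all 4 were below 0, with Krt6b at -3.86 (SE 1.85), Krt16 at -2.28 (SE 1.35), Krt6a at -1.08 (SE 0.76) and Krt17 at -0.85 (SE 0.56), each with an edgeR adjusted p of 0.9998. Under that clustering Krt6b had 164 and 159 CPM in NP137 1 and NP137 2, against 81.1 and 4329 CPM in control 1 and control 2, and Krt16 had 1281 and 1204 CPM, against 647 and 10824 CPM, the last value of each from the 37 epithelial-state cells of control 2.

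**Figure D3:**
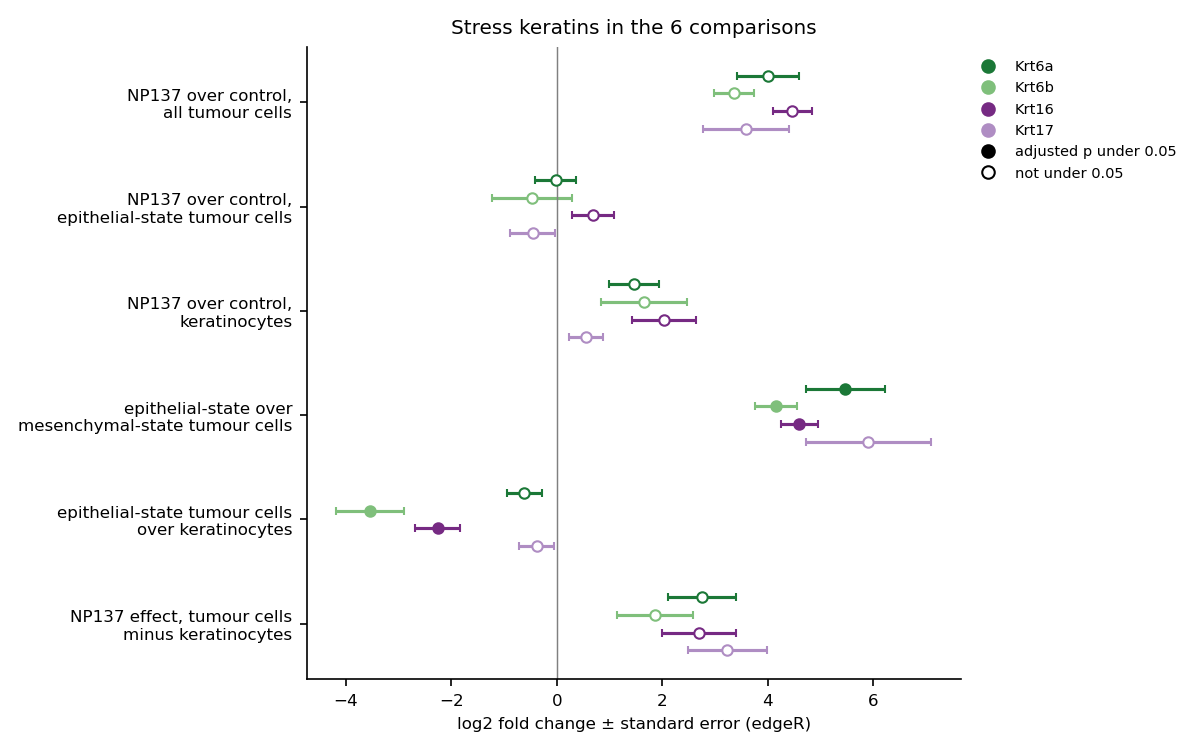
edgeR log2 fold changes of the 4 stress keratins with standard errors in the 6 comparisons, the first-named group over the second, filled where the adjusted p was under 0.05. The NP137 difference over all tumour cells lies between 3.36 and 4.46, and within epithelial-state cells as first drawn between -0.46 and 0.69.

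Genes that accompany the stress keratins in activated epidermis were described by lists. In the comparisons of NP137 with control in all tumour cells, in epithelial-state tumour cells and in keratinocytes, no member of any of the 13 lists passed in edgeR. At an unadjusted p under 0.05 there were 23 of 32 activated-keratinocyte genes in all tumour cells, where 23.5% of all genes were, 4 of 32 in epithelial-state cells, where 3.53% were, and 13 of 35 in keratinocytes, where 5.31% were. In all tumour cells, the 32 tested genes of activated keratinocytes had a median log2 fold change of 2.73, beside -0.03 for all genes, with 3.68 (SE 0.37) for Fabp5, a fatty acid carrier, 4.42 (SE 0.53) for Sprr1b, a cornified envelope precursor, and 2.65 (SE 0.35) for Areg, an EGF receptor ligand. The 12 keratin partners and linkers, which anchor keratin filaments to junctions, had a median of 2.47, with 3.46 (SE 0.39) for Dsp, 2.27 (SE 0.30) for Jup and 2.71 (SE 0.42) for Dsc3. The medians were 1.95 for cornification, 0.77 for epidermal transcription factors, 0.66 for Nrf2 targets, 0.35 for the Gli pathway, 0.09 for companion layer and outer root sheath genes, -0.51 for AP-1 and -0.46 for genes induced by tissue dissociation. The lists that drew the states had medians of 3.41 for epithelial and -3.41 for mesenchymal genes, the first above that of the activated-keratinocyte genes. Among other keratins the list members of smallest p were Krt14 at 4.12 (SE 0.78) and Krt5 at 4.01 (SE 0.82), the basal pair of stratified epithelia. In epithelial-state cells the activated-keratinocyte median was 0.42 and that of the linkers -0.04, with S100a8 at 2.17 (SE 0.52) and S100a9 at 1.99 (SE 0.51), alarmins that neutrophils also make, nearest to the threshold among the activated-keratinocyte list (both with an edgeR adjusted p of 0.999). The 7 neutrophil markers, S100a8 and S100a9 among them, summed to 221 and 569 CPM in these cells of NP137 1 and NP137 2. The sums were 122 and 86.8 CPM in control 1 and control 2, with 4 of the markers at 0 in control 2. Because the sum holds S100a8 and S100a9 themselves, it is no separate measure of neutrophil RNA. The part of neutrophils in these values was not tested.

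Between the states, 10 of the 31 tested activated-keratinocyte genes were higher and 2 lower in epithelial-state cells, where 6.74% and 9.06% of all genes were. The higher ones included the cytokines Il24 (log2 fold change 7.00) and Il1a (5.49) and the lower ones were the protease Mmp3 (-3.20) and the integrin Itga5 (-1.72). Of the 12 linkers 7 were higher, among them the desmosomal plaque gene Pkp3 (4.03) and the envelope linker Evpl (3.13), and 1 was lower, the cytolinker Plec (-0.85). Pkp3, Dsg3, Dsc3 and Dsp were among the genes whose sums drew the states, and of the other 8 linkers 4 were higher and 1 lower. Of the 11 epidermal factors 4 were higher, Grhl2 (5.10), Grhl1 (4.34), Grhl3 (4.25) and Klf5 (1.59), all regulators of epithelial genes. Grhl2 and Trp63 also served to draw the states, so the call of Grhl2 restates that choice, and 3 of the other 9 factors were higher. Of the 8 tested AP-1 genes 1 was higher and 2 lower, of the 10 Nrf2 targets 0 were higher and 1 was lower, and of the 5 tested Gli pathway genes none passed in edgeR, with 3 at an unadjusted p under 0.05, where 28.7% of all genes were.

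Within epithelial-state tumour cells the 4 genes were spread over cells in different ways. After scaling each cell to its UMIs, the top 10% of cells held 39.2%, 31.3% and 34.0% of Krt6a in NP137 1, NP137 2 and control 1, and 28.1%, 36.9% and 26.8% of Krt17. Krt16 was far more concentrated, with 75.1%, 75.9% and 72.8% in the top 10% of cells. Krt6b was the most concentrated, at 93.6%, 93.2% and 96.4%, although it was found in so few cells that sparse counting adds to this figure. Krt14, the basal type I keratin, had 23.6%, 21.5% and 20.6% there. In thinned cells a Krt16 UMI was found in 75.5% of cells with Krt6b and in 34.9% of those without in NP137 1, in 76.4% and 30.2% in NP137 2, and in 61.5% of 13 cells and 22.6% in control 1. The Spearman correlation of Krt6a with Krt16 across cells was 0.55, 0.64 and 0.40 in the 3 libraries, and that of Krt16 with Krt17 0.31, 0.34 and 0.17, a description over cells that share library and depth.

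Among the finer clusters was a tumour cluster rich in Krt16 and Krt6b, which need not hold the same cells as those just described. At this resolution 95 and 43 cells of NP137 1 and NP137 2, keratinocytes as first drawn, counted as epithelial-state tumour cells. With them the Krt16 UMIs of epithelial-state cells in NP137 2 went from 13662 to 22078. How many of them lie in this cluster was not counted. The cluster was led by Sprr1b, Krt16 and Krt6b, with YFP in 92.7% of 300 cells of NP137 1 and in 82.8% of 58 cells of NP137 2. It had 8915 and 11489 CPM of Krt16 and 1320 and 2380 CPM of Krt6b. Krt6a was at 6682 and 7069 CPM there, and Krt17 at 9161 and 5539 CPM. The largest epithelial-state cluster, led by Wfdc2, had 437 and 302 CPM of Krt16 in NP137 1 and NP137 2, against 252 CPM in control 1, and 26.4 and 12.05 CPM of Krt6b, against 11.1 CPM. Krt17 stayed high in it, at 4974 and 3058 CPM in NP137 1 and NP137 2, against 4606 CPM in control 1. A cluster led by Fxyd2, Aldh3a1 and Rbp4, with Epcam in 31.9% of cells in NP137 1 and 28.7% in control 1, had the lowest values of the epithelial-state clusters for Krt6a, with 540 CPM in NP137 1 and 718 CPM in control 1. These clusters were found with genes that vary with the 4 keratins, so the differences are descriptions and carry no test.

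**Figure D4:**
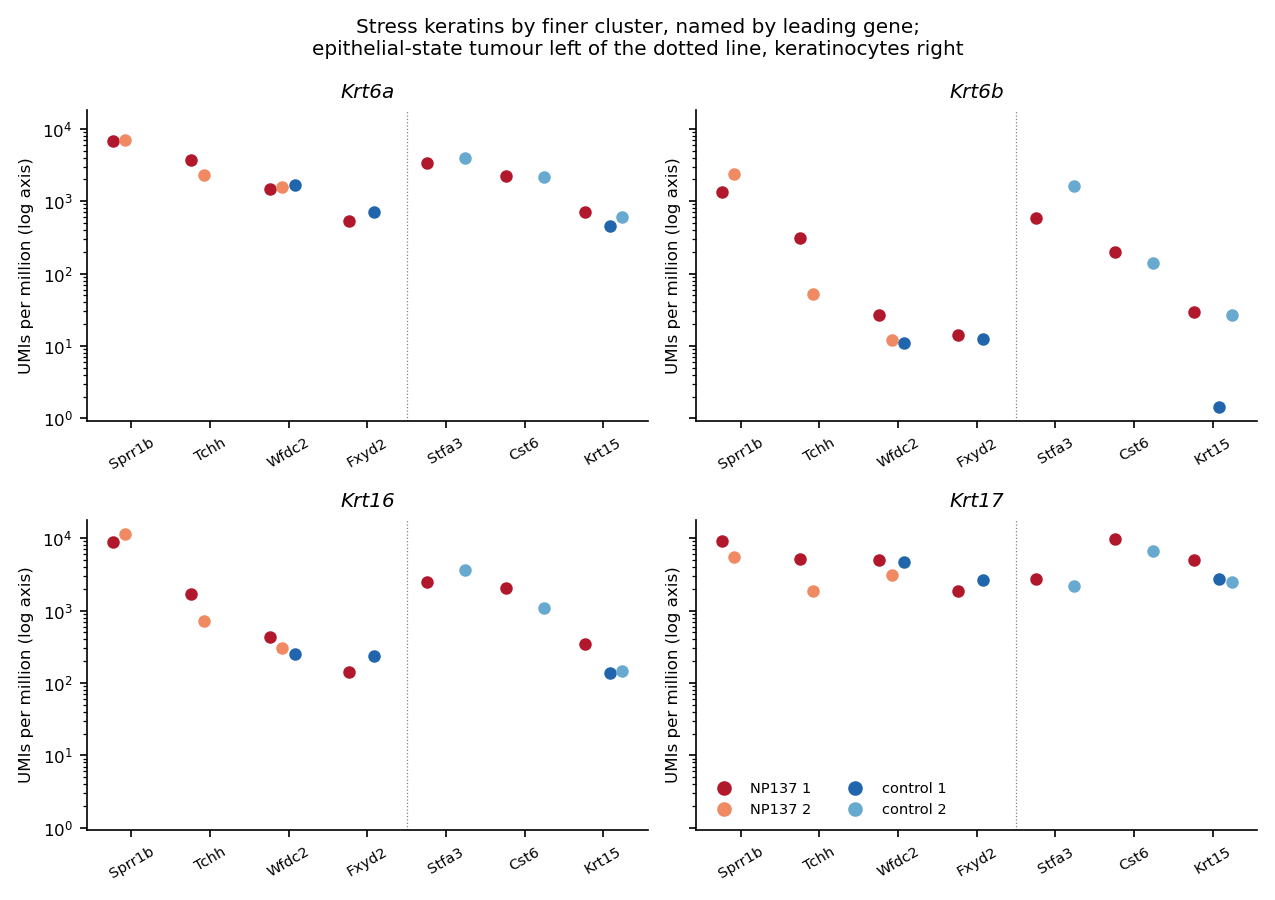
Level in CPM (log axis) of each stress keratin in finer clusters, named by their leading gene, a point per library with at least 50 cells, epithelial-state tumour clusters left of the dotted line and keratinocyte clusters right of it. Over the epithelial-state clusters Krt16 ranges from 143 CPM in the Fxyd2 cluster to 11489 CPM in the Sprr1b cluster, and Krt17 from 1879 to 9161 CPM.

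Keratinocytes outside the tumour clusters fell into a group led by Krt15, a keratin of follicle stem cells and the basal layer, and a differentiating group. Krt6a had 4594 and 7177 CPM in differentiating cells of NP137 1 and NP137 2 and 3915 and 4224 CPM in those of control 1 and control 2, against 772, 1266, 431 and 583 CPM in Krt15 cells of the same 4 libraries. Krt6b had 1082, 2517, 753 and 1701 CPM in differentiating cells, against 27.8, 4.93, 1.18 and 25.7 CPM in Krt15 cells. Krt16 had 5020, 10650, 3841 and 4365 CPM in differentiating cells, against 339, 29.6, 117 and 142 CPM in Krt15 cells. Krt17 differed least, with 5764, 5307, 7338 and 5379 CPM in differentiating cells, against 4472, 2424, 2401 and 2355 CPM in Krt15 cells. For all 4 genes every differentiating value exceeded every Krt15 value, and the share of all genes that do so was not counted. No test is given because this split was chosen after the values were seen. The Krt6b values of Krt15 cells in NP137 2 and control 1 each rest on 1 UMI. Macrophages had 26.3 and 2.45 CPM of Krt6b in NP137 1 and NP137 2, against 6.33 and 20.5 CPM in control 1 and control 2, so Krt6b in Krt15 cells is not separated from background.

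The keratinocyte label did not hold for all of these cells. At the finer resolution 160 of them moved to a tumour cluster, 95 and 43 in NP137 1 and NP137 2, against 8 and 14 in control 1 and control 2. They had a YFP UMI in 82.1% and 86.0% of cells in the NP137 libraries, against 75.0% and 21.4% in control 1 and control 2, while the cells that stayed had it in 28.1% and 17.8%, against 25.8% and 17.2%. These 160 cells held 49.7% and 90.6% of all Krt16 UMIs of the keratinocytes in NP137 1 and NP137 2, against 80.3% and 40.4% in control 1 and control 2. Their Krt16 level was 15329 and 12905 CPM in the NP137 libraries, against 8691 and 23259 CPM in control 1 and control 2. Krt1, an early differentiation keratin, was at 12.6 CPM in the differentiating cells of NP137 2, against 322 to 680 CPM in those of the other 3 libraries. Krt10 was at 20.6 CPM there, against 284 to 676 CPM. The label is thus not borne out by these keratins in NP137 2. The 7 differentiation markers were summed only over all keratinocytes, with 5134.6 CPM in NP137 2, against 1789.4 to 3078.5 CPM in the other 3 libraries. Differentiating cells were 70.5% of the keratinocytes of NP137 2, against 16.5% to 37.2% in those libraries. The sum therefore also holds the make-up of the class and cannot decide the label. The cells that were differentiating keratinocytes at both resolutions (940 and 19 in NP137 1 and NP137 2, 38 and 258 in control 1 and control 2) had lower values, with Krt16 at 2859 and 3959 CPM in the NP137 libraries and 951 and 2729 CPM in the control libraries. Their Krt6b was at 591 and 1124 CPM in NP137 1 and NP137 2 and 280 and 1029 CPM in control 1 and control 2. These values still lay above every Krt15 value, as did those of Krt6a, at 3580, 5160, 1627 and 3496 CPM. Krt17, at 5073, 3358, 3954 and 4926 CPM, then overlapped with the Krt15 values.

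Epithelial-state tumour cells had less Krt6b and Krt16 than the pooled keratinocytes as first drawn, but not with the finer clusters, in which those 160 cells counted as tumour. Krt16 had 864 and 772 CPM in tumour cells of NP137 1 and NP137 2 and 384 and 757 CPM in those of control 1 and control 2, against 2755, 8645, 1493 and 1767 CPM in keratinocytes. Krt6b had 68.1, 54.4, 33.3 and 166 CPM in epithelial-state tumour cells, against 572, 2043, 279 and 671 CPM in keratinocytes. These keratinocyte values pool the differentiating and the Krt15 groups. Krt15 cells alone lay under the tumour cells of each library, with Krt16 at 339, 29.6, 117 and 142 CPM. Their Krt6b, not separated from background, was at 27.8, 4.93, 1.18 and 25.7 CPM. Tumour cells were not tested against either group alone. The log2 fold changes were -2.26 for Krt16 (SE 0.42, edgeR adjusted p = 0.0208) and -3.53 for Krt6b (SE 0.64, adjusted p = 0.0262), 2 genes of 4 lower, where 14.0% of 11697 genes were lower and 10.1% higher. Krt6a was at -0.61 (SE 0.34, adjusted p = 0.257) and Krt17 at -0.38 (SE 0.33, adjusted p = 0.466), and neither passed. At the finer resolution Krt16 was at 0.60 (SE 0.97, adjusted p = 0.730), Krt6b at -0.10 (SE 1.25, adjusted p = 0.970), Krt6a at 0.60 (SE 0.61, adjusted p = 0.565) and Krt17 at 0.26 (SE 0.35, adjusted p = 0.668). A YFP UMI was also required in tumour cells and barred in keratinocytes, which left control 2 out. Krt16 then remained lower at -0.90 (SE 0.20, edgeR adjusted p = 0.00767) and Krt6b was at -2.50 (SE 0.62, adjusted p = 0.0754). Without NP137 1 or without control 1 both missed the threshold, with adjusted p of 0.0687 and 0.110 for Krt16 and 0.0846 and 0.145 for Krt6b. Without NP137 2 Krt6b was at -2.92 and Krt16 at -1.80, and both passed. With library sizes alone as scaling the median of all genes was 0.18 and the calls split into 2186 higher and 1273 lower, against 1185 and 1641 with TMM, while the signs of the 4 genes did not change.

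In keratinocytes none of the 4 genes passed between NP137 and control in edgeR, where 0.0% of 11421 genes passed and 5.31% had an unadjusted p under 0.05. Krt6a had 2745 and 6061 CPM in NP137 1 and NP137 2, against 1718 and 1984 CPM in control 1 and control 2, a log2 fold change of 1.46 (SE 0.48, adjusted p = 0.791). Krt6b was at 1.66 (SE 0.81), Krt16 at 2.03 (SE 0.60) and Krt17 at 0.55 (SE 0.33), all with an adjusted p of 0.791. The make-up of the class moved with the groups: differentiating cells were 37.2% and 70.5% of keratinocytes in NP137 1 and NP137 2, against 16.5% and 25.2% in control 1 and control 2. The 7 neutrophil markers, which include the activated-keratinocyte genes S100a8 and S100a9, summed to 1602 and 4320 CPM in keratinocytes of the NP137 libraries. The sums were 621 and 681 CPM in those of the control libraries, with Ly6g at 0 in both controls. The part of the make-up or of neutrophils in the keratin values was not tested. DESeq2 called 1 of the 4, Krt16 (adjusted p = 0.0492), beside 0.0876% of genes. Without NP137 1 Krt16 passed in edgeR, at 2.65 (adjusted p = 0.0329). With the 160 cells taken out, Krt16 had 1523 and 2072 CPM in NP137 1 and NP137 2, against 341 and 1087 CPM in control 1 and control 2. Krt6b then had 293 and 587 CPM in the NP137 libraries, against 76.1 and 392 CPM in the control libraries. NP137 2 held 88 keratinocytes in all, the fewest of the 4 libraries.

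The NP137 difference was larger in tumour cells than in keratinocytes by 2.75 for Krt6a (SE 0.64, edgeR adjusted p = 0.116), 1.86 for Krt6b (SE 0.72, adjusted p = 0.349), 2.69 for Krt16 (SE 0.70, adjusted p = 0.152) and 3.23 for Krt17 (SE 0.75, adjusted p = 0.124) on the log2 scale. None of the 4 passed in this test of the difference in edgeR, where 0.506% of 14417 genes did. All 4 had an unadjusted p under 0.05, beside 13.8% of genes, and DESeq2 called 3 of them, all but Krt6b, beside 5.13% of genes. Without control 1 all 4 passed in edgeR, at 3.63 for Krt6a, 2.18 for Krt6b, 3.29 for Krt16 and 4.20 for Krt17. Without control 2 all but Krt6b passed, and without NP137 2 Krt6b and Krt16 passed.

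Set against the other keratins of the same cells, the stress keratins were a large part of the type II keratin UMIs of epithelial-state tumour cells. Krt6a made up 29.5% and 37.3% of type II keratin UMIs in NP137 1 and NP137 2, against 31.4% and 42.1% in control 1 and control 2, with most of the rest from Krt5. Krt17 made up 26.4% and 12.3% of type I keratin UMIs in the NP137 libraries, against 26.5% and 31.7% in the control libraries, and Krt16 5.01% and 4.84%, against 2.52% and 4.08%. NP137 2 was thus the lowest library for Krt17 by this measure as well as by CPM. In differentiating keratinocytes Krt16 reached 15.2% and 30.6% of type I UMIs in NP137 1 and NP137 2, against 14.8% and 15.5% in control 1 and control 2, with the 160 cells included. In Krt15 keratinocytes Krt6a was 18.4% and 28.3% of type II UMIs in the NP137 libraries, against 14.96% and 14.9% in the control libraries. In mesenchymal-state cells Krt8, a keratin of simple epithelia, led the type II UMIs at 49.3% in NP137 1, against 85.2% and 63.4% in control 1 and control 2.

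**Figure D5:**
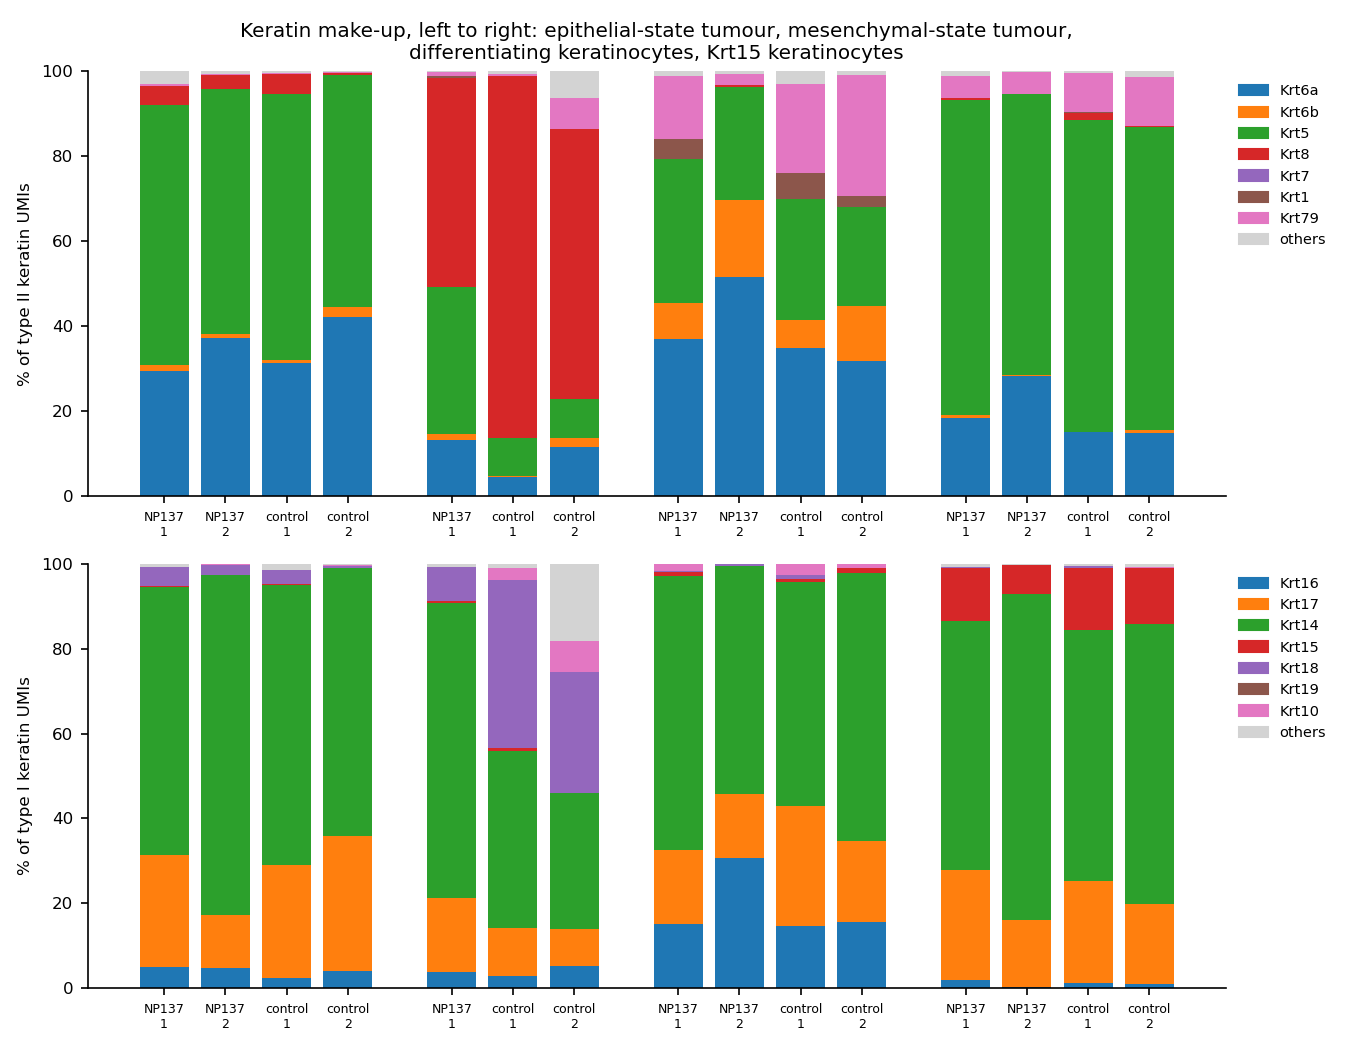
Percent of type II (top) and type I (bottom) keratin UMIs contributed by each keratin, a bar per library and class with at least 20 cells. Krt6a takes 29.5% to 42.1% of type II UMIs in epithelial-state tumour cells, and Krt16 takes up to 30.6% of type I UMIs in differentiating keratinocytes as first drawn.

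The balance within each pair also differed by class. UMIs of Krt6a outnumbered those of Krt6b by 23.8 and 42.1 times in epithelial-state tumour cells of NP137 1 and NP137 2, against 49.9 and 17.2 times in those of control 1 and control 2. In differentiating keratinocytes the ratio was 4.25 and 2.85 in the NP137 libraries, against 5.20 and 2.48 in the control libraries. UMIs of Krt17 outnumbered those of Krt16 by 5.26 and 2.55 times in epithelial-state tumour cells of NP137 1 and NP137 2, against 10.5 and 7.77 times in those of control 1 and control 2. In differentiating keratinocytes this ratio was 1.15 and 0.498 in the NP137 libraries, against 1.91 and 1.23 in the control libraries. Krt15 keratinocytes had higher ratios than the tumour cells of each library. Krt17 over Krt16 was 13.2 and 82.0 there in the NP137 libraries, against 20.5 and 16.5 in the control libraries. Krt6a over Krt6b was 27.8 and 257, against 364 and 22.7, with 1 Krt6b UMI each in NP137 2 and control 1. High ratios were thus not particular to tumour cells. With the classes as first drawn both ratios were higher in epithelial-state tumour cells than in differentiating keratinocytes in all 4 libraries, but with the finer clusters both turned in control 2. There Krt6a over Krt6b was 1.67 in epithelial-state cells, against 3.47 in differentiating keratinocytes, and Krt17 over Krt16 was 0.739, against 1.87. In NP137 1, NP137 2 and control 1 both stayed higher with the finer clusters, with Krt6a over Krt6b at 11.2, 15.7 and 22.4 in epithelial-state cells, against 6.42, 4.92 and 6.44 in differentiating keratinocytes. Krt17 over Krt16 was then 3.65, 1.75 and 6.59 in epithelial-state cells of these 3 libraries, against 1.96, 0.937 and 4.62 in differentiating keratinocytes.

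Across 15 units, each a tumour or keratinocyte class as first drawn in a library, the genes whose log level was most like each stress keratin separated the 4 genes into pairs that cross the filament types. Krt6b and Krt16 shared Sprr1b among their 5 nearest genes (Pearson r = 0.96 with each) and had each other (r = 0.95). The others for Krt6b were Sprr2h, a further cornified envelope precursor, Dstn and Klk6, and for Krt16 the tight junction gene Cldn4, Nectin4 and Fabp5. Krt17 was nearest to the basal keratins Krt5 (r = 0.98) and Krt14 (r = 0.98), with Pkp3 and Ripk4 also among its nearest genes. Krt6a was nearest to Rab25 (r = 0.99), Krtdap, Lypd3, Fam89a and Sfn. Among the 4 genes the weakest likeness was that of Krt6b with Krt17 (r = 0.63), and Krt6a was as near to Krt17 as r = 0.93. The units share libraries and classes, so these values describe the data and carry no p.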

How the data were processed

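The authors deposited UMI counts per gene and barcode for 4 libraries, with 10x software version 3.0.2 named in them (per the file headers). The submitters' processing notes give mm10 and Seurat 3.1.5. Alignment parameters are not stated there. In the labels appear a V2-chemistry chip and a V3-chemistry library kit. Total UMIs were 69517664 and 149021188 in NP137 1 and NP137 2, against 88076950 and 73685280 in control 1 and control 2.

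Barcodes had to show 200 or more genes and a mitochondrial share below 20%. Doublets were taken as the highest Scrublet scores at a rate of 0.8% for each 1000 barcodes (2412 and 2401 cells in NP137 1 and NP137 2, against 1195 and 378 in control 1 and control 2) and left out. Clusters came from 2000 variable genes without the 4 members, 30 principal components, 15 neighbours and Leiden at resolution 1 (scanpy 1.11.5). Clusters were named from marker lists. The members and all lists were chosen with earlier results of these data known.

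Counts were summed per library and class, with at least 50 cells (20 for states and comparisons between classes of a library). All genes passing filterByExpr, which kept the 4 members in every comparison, were tested with edgeR 4.0.16 (TMM, glmQLFit robust, glmQLFTest) and Benjamini-Hochberg adjustment at 0.05, 2-sided, on R 4.3.3, with DESeq2 1.42.0 as an alternative. Standard errors are the log2 fold change divided by the square root of the F value. The tests were checked on simulated data. Shares of keratin UMIs are given per member and not as a sum with a p. CPM are plain, without TMM, and no level is compared per length.

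For shares of cells, each cell was thinned to 2000 UMIs and shallower cells were left out (189 and 32 epithelial-state cells of NP137 1 and NP137 2, against 32 and 3 of control 1 and control 2). Unthinned, Krt6a was found in 91.9% and 97.6% of epithelial-state cells of NP137 1 and NP137 2, against 92.0% and 91.3% of those of control 1 and control 2. Named genes were the members, the 5 genes of highest Pearson r with each across classes (1 of them is not reported here), and the 3 list members of smallest p, and list members named between states were chosen after their values were seen.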

Additional observations from a re-analysis of the deposited data

How the results depend on the processing

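Of 288 alternative values of the 4 members over the 6 comparisons, 223 kept their direction and side of the threshold, 39 passed it where the main value did not, 10 no longer passed and 16 turned direction. In all tumour cells the 4 log2 fold changes stayed above 0 in every alternative. Alternatives with no scaling factors, and with the NP137 or control libraries alone, were chosen after seeing the data. The number of genes called was the least stable result. For NP137 against control in tumour cells it was 1, but 2220 with DESeq2, 1240 without a filter on low counts, 2 with no scaling factors, 0 with a replicate block and 0 to 497 when a library was left out. For epithelial-state cells it was 0, but 6 with DESeq2, 55 without a filter, 4 with a replicate block and 0 to 7 when a library was left out. For keratinocytes it was 0, but 10 with DESeq2, 151 without a filter, 85 with the finer clusters and 0 to 324 when a library was left out. For epithelial-state against mesenchymal-state cells it was 2036, but 3112 without a filter, 3098 with the YFP rule and 1497 to 3373 when a library was left out. For epithelial-state tumour cells against keratinocytes it was 2826, but 4337 without a filter, 1157 with no library block, 1584 with the NP137 libraries alone, 1208 with the control libraries alone and 970 to 2866 when a library was left out. For the difference of the NP137 effect it was 73, but 740 with DESeq2, 152 with DESeq2 size factors, 374 with no scaling factors, 1419 without a filter, 346 with the YFP rule and 182 to 1446 when a library was left out. The cause was not tested for any of these counts. Some alternatives also lost libraries that fell under the least number of cells. The YFP rule left only NP137 1 and control 1 between the states. It left control 2 out of the other epithelial-state comparisons. In keratinocytes and for the difference of the NP137 effect, the YFP rule and the finer clusters both left NP137 2 out. With no scaling factors the median of all genes was -0.29 in tumour cells, -0.19 in epithelial-state cells and -0.19 in keratinocytes.

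Directions turned for 1 called value, Krt16 in epithelial-state tumour cells against keratinocytes (-2.26), and for values that had not passed. For NP137 against control in epithelial-state cells Krt6a, at -0.02, became 0.0276 without a filter, 0.0159 with the members kept in clustering, 0.51 with the YFP rule, 0.00701 with a replicate block and -0.376 to 0.51 when a library was left out, Krt6b, at -0.46, became 1.19 with the YFP rule and -1.29 to 1.15 when a library was left out, and Krt16, at 0.69, became -2.28 with the finer clusters. In keratinocytes Krt6b, at 1.66, became -0.11 with the YFP rule, which left out NP137 2 there and control 2 in epithelial-state cells. For epithelial-state tumour cells against keratinocytes Krt6a became 0.60, Krt16 0.60 and Krt17 0.26 with the finer clusters, where the 160 cells named above change class, Krt6a became 0.0622 and Krt17 0.17 with the control libraries alone, and Krt17 became 0.0129 with the YFP rule.

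NP137 minus control shares of keratin UMIs turned in tumour cells for Krt6b (-0.23 points, but 0.85 with the macrophage level subtracted), for Krt16 (1.24 points, but -0.52 as a mean over cells and -5.71 with the finer clusters) and for Krt17 (-1.64 points, but 0.135 with the macrophage level subtracted and 6.13 as a mean over cells). Leaving out a library gave -1.03 to 0.58 points for Krt6b, and -8.65 to 5.37 for Krt17 in tumour cells, and -0.0439 to 10.1 for Krt6b in keratinocytes. Labels share the numbers 1 and 2 across groups, and nothing says that a number marks an animal or day. Deviations of same-numbered libraries correlated at 0.0292 in tumour cells, 0.108 in epithelial-state cells and -0.0517 in keratinocytes. The replicate block changed no call of a member. With 2 libraries per group and 23 epithelial-state cells in control 2, small differences within that state were not detectable.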

Other observations

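Low stress keratin counts were found in cells that should not make keratins, and their level followed the library. Krt17 ranged from 75.5 to 773 CPM over the libraries in T and NK cells, from 22.7 to 358 CPM in endothelial cells and from 14.4 to 310 CPM in fibroblasts. Neutrophils had 1036 and 81.7 CPM of Krt17 in NP137 1 and NP137 2, against 279.65 and 256 CPM in control 1 and control 2, so that NP137 1 was the highest library here as it was in macrophages.

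An unnamed cluster of 1750 cells, 1731 of them from control 2, had few UMIs per cell (0.151 of the library median) and was led by AY036118, Mgp and Crisp1, the last 2 of which also lead the mesenchymal-state tumour cluster of control 2. It was used in no comparison. In NP137 1, epithelial-state tumour cells with Xist and no Y-linked UMI (470 cells) had 2683 CPM of Krt6a, 142 of Krt6b, 1234 of Krt16 and 5153 of Krt17, against 1379, 58.4, 826 and 4478 CPM in those with Y-linked UMIs and no Xist (1096 cells). Both groups come from a single library, so no test was made.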
